A study of Rattus norvegicus with 9 samples.

Results

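Diets were compared in 6 libraries of dorsal hippocampus mRNA, all from rats that had been made epileptic with pilocarpine. PILO+KD, with 3 libraries, was the group fed a ketogenic diet, and PILO, also with 3, was the group fed standard chow. They were picked by the treatment and diet in the labels and make up 6 of the 9 mRNA libraries of the study. The other 3 are CTRL, animals on standard chow that received methyl scopolamine and saline instead of pilocarpine.

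All animals were male Wistar rats of 300 to 350 g, kept singly, and each library came from 1 animal. PILO and PILO+KD animals shared the same treatment: methyl scopolamine at 1 mg/kg, then pilocarpine at 340 mg/kg, and diazepam at 8 mg/kg once status epilepticus had lasted 60 min. A second dose of 175 mg/kg was given to animals without status epilepticus after 45 min, and the sources used here do not say which animals these were. The ketogenic diet began right after status epilepticus, and monitoring went on for 84 days. Over that time the study reports fewer seizures per week in rats on the ketogenic diet than on standard chow. Diet and seizure frequency therefore cannot be told apart in these libraries. The series used here holds no animals fed the ketogenic diet without pilocarpine, so a difference between diets is a difference within epileptic rats only. The study's methods give the age of CTRL only as matched to that of the treated rats.

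A ketogenic diet replaces most carbohydrate by fat, so that the liver makes ketone bodies, which the brain burns in place of part of its glucose, and it is used against seizures that drugs do not control. Pilocarpine, an agonist of muscarinic acetylcholine receptors, sets off a long seizure that injures the hippocampus and is followed, after a silent interval, by spontaneous seizures. The chronic epileptic hippocampus is known for loss of neurons, reactive astrocytes and altered ion channel expression. In bulk tissue such as this, fewer cells of a type and less RNA per cell cannot be told apart.

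Counts were assigned to 31786 transcripts, of which 21242 (66.8%) had a total of at least 60 over the 6 libraries and were tested. Library totals ranged from 17855792 to 24092617 in PILO and from 9904067 to 22330760 in PILO+KD, with overlapping ranges (exact two-sided permutation test, p = 0.7, where 3 against 3 libraries cannot give less than 0.1). PILO+KD replicate 3 was the shallowest library and the only one whose column name carries the code FC095 instead of FC094, read here as a sequencing run or flow cell, which the labels do not state. PILO replicate 3 stood apart from the rest. Its 10 most abundant transcripts took 26.04% of its counts, against 13.3% to 19.3% in the other 5 libraries, and its median absolute log2 difference from PILO replicates 1 and 2 was 0.51 and 0.59, while those 2 differed from each other by 0.19. Among the PILO+KD libraries the same measure ran from 0.24 to 0.33. Values of the named genes that moved by over 1.5 times without PILO replicate 3 are given with and without it.

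The comparison asks whether expression differed between epileptic animals on the ketogenic diet and those on standard chow, whose seizure frequency also differed. By edgeR's quasi-likelihood test 0 of 21242 transcripts (0%) passed an adjusted p of 0.05, with 0.156 as the smallest value. Unadjusted, 1564 (7.36%) had p under 0.05, of which 515 stood at a higher and 1049 at a lower level in PILO+KD. Under the study's own threshold, an unadjusted p of 0.01, lay 234 (1.1%), with 80 higher (0.377%) and 154 lower (0.725%), where evenly spread p-values would give 212.42. With counts scaled by library totals alone the split was 78 higher and 88 lower. Log2 fold changes (PILO+KD minus PILO) were above 0 for 49.8% of transcripts. DESeq2 and the edgeR exact test, which allow less for uncertainty in the spread, passed 22 and 28 transcripts at an adjusted p under 0.05. All 22 of DESeq2 were among the 28, with 6 higher and 16 lower in PILO+KD. Limma with library quality weights passed 1.

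Values of all 3 PILO+KD libraries lay on one side of all 3 PILO libraries for 2547 transcripts (12%), 1188 of them higher (5.59%) and 1359 lower (6.4%). Those that also differed at least 2-fold were unevenly split, with 46 higher and 200 lower in PILO+KD. The split was 39 and 141 without PILO replicate 3, and 71 and 127 when counts were scaled by library totals alone. It was closer to even without PILO replicate 1 (213 and 334) or PILO replicate 2 (340 and 441). Precision depended on abundance. Levels are given as CPM, counts scaled to library totals that were adjusted by the trimmed mean of M-values. In the 5311 transcripts of lowest mean level, from 0.457 to 3.43 CPM, the median standard error (SE) of the log2 fold change was 0.40. It was 0.21 in the 5311 of highest level. The shares were 1.17% and 0.847% in these strata at an unadjusted p under 0.01, and in the reverse order, 7.16% and 8.59%, at one under 0.05.

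**Figure D1:**
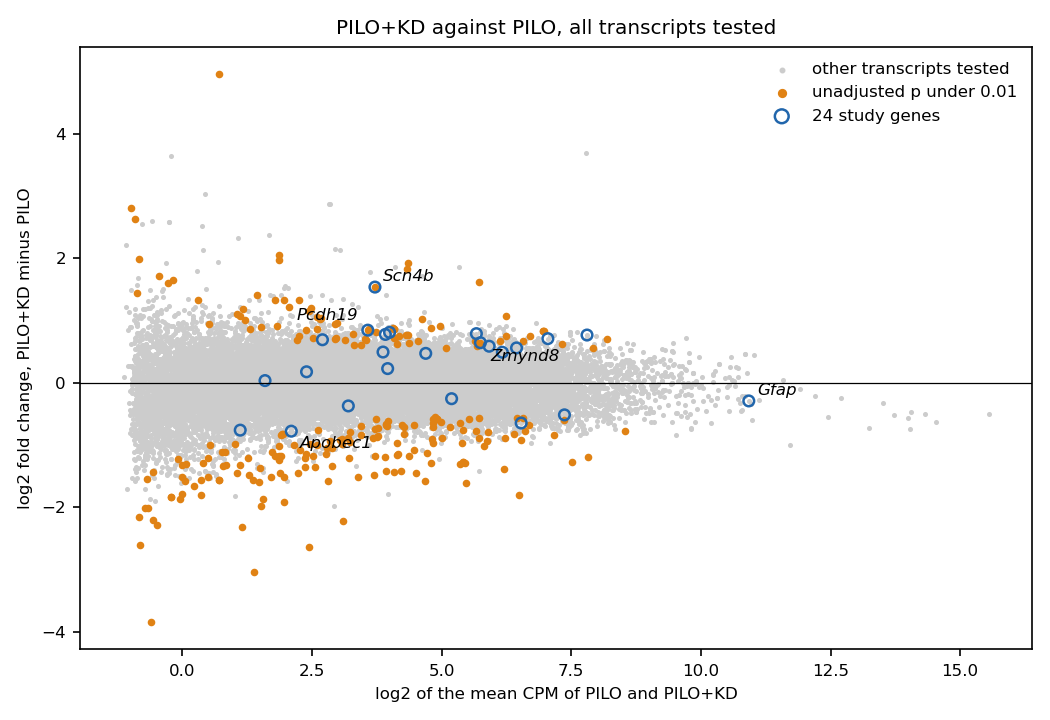
Log2 fold change (PILO+KD minus PILO) against the log2 of the mean CPM of both groups for each of the 21242 transcripts tested, in grey, with the 234 at an unadjusted p under 0.01 in orange and the 24 genes named by the study circled in blue. The orange points lie on both sides of 0, with 154 below it, and no transcript passed the adjusted threshold.

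Gene symbols could be given only to 24 transcripts for which the study names a gene, of which 14 belong to its epilepsy list and 10 to its epigenetic list. The study picked them because they differed between PILO and CTRL in these same libraries. An unusually high or low PILO mean therefore helped a gene onto the list, and a move away from PILO on the other diet is not independent evidence of an effect of the diet. All 24 passed the filter on low counts. Between diets 0 of the 24 passed, and 0.613 was their smallest adjusted p, the value of each gene that had an unadjusted p under 0.05. Those were 13 of 24 (7.36% of all transcripts tested), 10 higher in PILO+KD (2.42% of all) and 3 lower (4.94%). An unadjusted p under 0.01 was reached by 3 (1.1% of all), namely Scn4b, Pcdh19 and Zmynd8. The epilepsy list held 9 of the 13, with 7 higher and 2 lower, and the epigenetic list held 4, with 3 higher and 1 lower. Log2 fold changes were above 0 for 17 of the 24 (49.8% of all) and below 0 for 7. Levels of the diets did not overlap for 12 genes (12% of all), 9 of them higher in PILO+KD (5.59%) and 3 lower (6.4%). Their median log2 fold change was 0.49, and 0.24 without PILO replicate 3, while that of all transcripts tested was -0.0022.

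**Figure D2:**
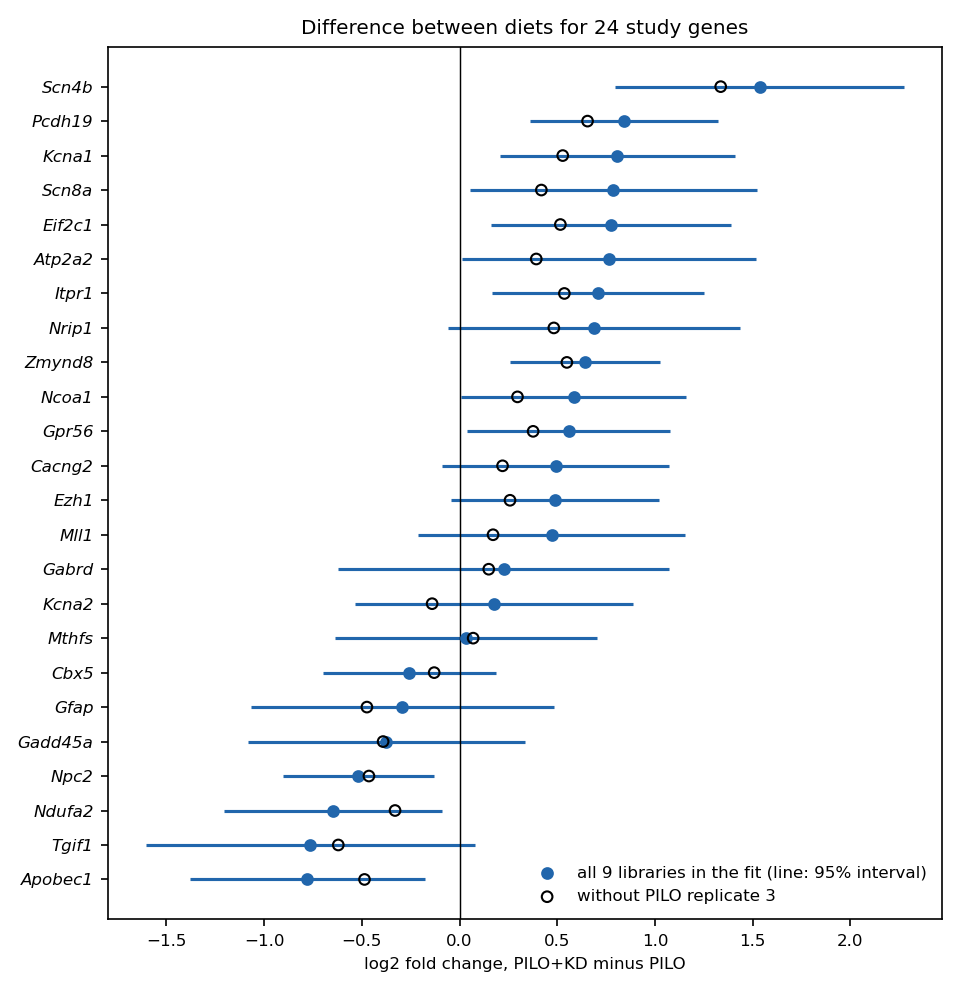
Log2 fold change of the 24 study genes between diets (PILO+KD minus PILO, horizontal axis), with 95% intervals as lines and, as open circles, the value without PILO replicate 3. Intervals, not adjusted for the number of tests, exclude 0 for 13 genes, that of Scn4b from 0.80 to 2.28. Of all transcripts 7.36% had an unadjusted p under 0.05, and no gene passed the adjusted threshold. The study picked the 24 genes on PILO against CTRL in these libraries. The open circle lies nearer to 0 than the filled one for 21 genes.

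Voltage-gated sodium channels carry the rising phase of the action potential. Scn4b (ENSRNOT00000030152), a beta subunit that shapes the reopening of these channels, had the largest difference between diets of the 24 genes. It stood at 10.0, 5.66 and 4.62 CPM in PILO replicates 1 to 3 and at 16.4, 29.2 and 12.9 CPM in those of PILO+KD. The lowest PILO+KD library thus exceeded the highest PILO library, while CTRL libraries reached 25.8 to 34.2 CPM. Between diets its log2 fold change was 1.54 (SE 0.34, 95% interval 0.80 to 2.28), a 2.90-fold higher level in PILO+KD, with an adjusted p of 0.613. By unadjusted p (0.000695) it ranked 21 of 21242 transcripts. Scn4b passed with DESeq2 (adjusted p 0.0154) and the edgeR exact test (0.0198), while over all alternatives the adjusted p went from 0.0154 to 0.9999. Its log2 fold change was 1.34 without PILO replicate 3, its lowest library, and 1.12 without PILO+KD replicate 2, its highest in that group. It ran from 0.92, with limma and library quality weights, to 1.93 over all alternatives.

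Scn8a (ENSRNOT00000008160), a pore-forming sodium channel of the axon initial segment, was at 48.3, 48.3 and 15.5 CPM in PILO and at 63.4, 67.5 and 62.8 CPM in PILO+KD. Both groups were tight apart from PILO replicate 3, which stretched PILO over a 3.12-fold range against 1.08-fold in PILO+KD. The difference of 0.79 on the log2 scale (SE 0.34) became 0.42 (SE 0.17) without that library.

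Potassium channels limit firing. Kcna1 (ENSRNOT00000026731), a delayed rectifier of axons, had 15.2, 13.1 and 6.52 CPM in PILO and 19.9, 23.7 and 17.4 CPM in PILO+KD, without overlap, beside 25.2 ± 3.19 CPM in CTRL (mean ± SD, n = 3). The difference on the log2 scale was 0.81 (SE 0.28), with 0.53 (SE 0.19) without PILO replicate 3 and 0.43 under limma with library quality weights. Kcna2 (ENSRNOT00000050149), which assembles with Kcna1, behaved otherwise. Its PILO libraries held 6.52, 5.90 and 2.43 CPM and its PILO+KD libraries 6.45, 5.60 and 4.69 CPM. These ranges overlapped, and the log2 fold change of 0.18 (95% interval -0.54 to 0.89) turned to -0.14 without PILO replicate 3. Both diets lay below CTRL, at 9.93 ± 1.94 CPM (n = 3). Whether Kcna1 and Kcna2 differed from each other in their response was not tested.

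Calcium release and reuptake were represented by Itpr1 and Atp2a2. Itpr1 (ENSRNOT00000009288), the inositol trisphosphate receptor that releases calcium from internal stores, was at 114.5, 112 and 75.4 CPM in PILO and at 145, 226 and 122 CPM in PILO+KD. The groups did not overlap, though PILO+KD replicate 3 lay close to PILO replicates 1 and 2 and PILO+KD replicate 2 lay within the CTRL range of 219.7 to 272 CPM. On the log2 scale the difference was 0.71 (SE 0.25), with 0.54 (SE 0.22) without PILO replicate 3 and 0.41 without PILO+KD replicate 2, where the unadjusted p was 0.101 in edgeR. Atp2a2 (ENSRNOT00000067047), the pump that returns calcium to the endoplasmic reticulum, stood at 215, 214 and 67.8 CPM in PILO and at 333, 279.8 and 232 CPM in PILO+KD, without overlap. A log2 difference of 0.77 (SE 0.35) became 0.39 (SE 0.17) without PILO replicate 3. Cacng2 (ENSRNOT00000008414), the auxiliary subunit that carries AMPA-type glutamate receptors to the synapse, gave 14.6, 14.9 and 6.99 CPM in PILO and 19.3, 17.8 and 14.2 CPM in PILO+KD. These ranges overlapped (log2 fold change 0.49, 95% interval -0.09 to 1.07), and the value was 0.22 without PILO replicate 3.

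Gabrd (ENSRNOT00000022246) encodes the delta subunit of GABA-A receptors outside synapses, which mediate the tonic inhibition of granule cells. The PILO libraries agreed closely, at 15.7, 14.4 and 12.9 CPM. Those of PILO+KD did not, at 5.72, 25.6 and 19.1 CPM: replicate 1 was the lowest of all 9 libraries and replicate 2 lay within the CTRL range of 25.5 to 29.2 CPM. PILO+KD thus spanned a 4.48-fold range against 1.22-fold in PILO. With a log2 fold change of 0.23 (95% interval -0.62 to 1.07) the direction was undetermined, and the value was -0.23 without PILO+KD replicate 2, 0.65 without PILO+KD replicate 1 and 0.15 without PILO replicate 3.

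**Figure D3:**
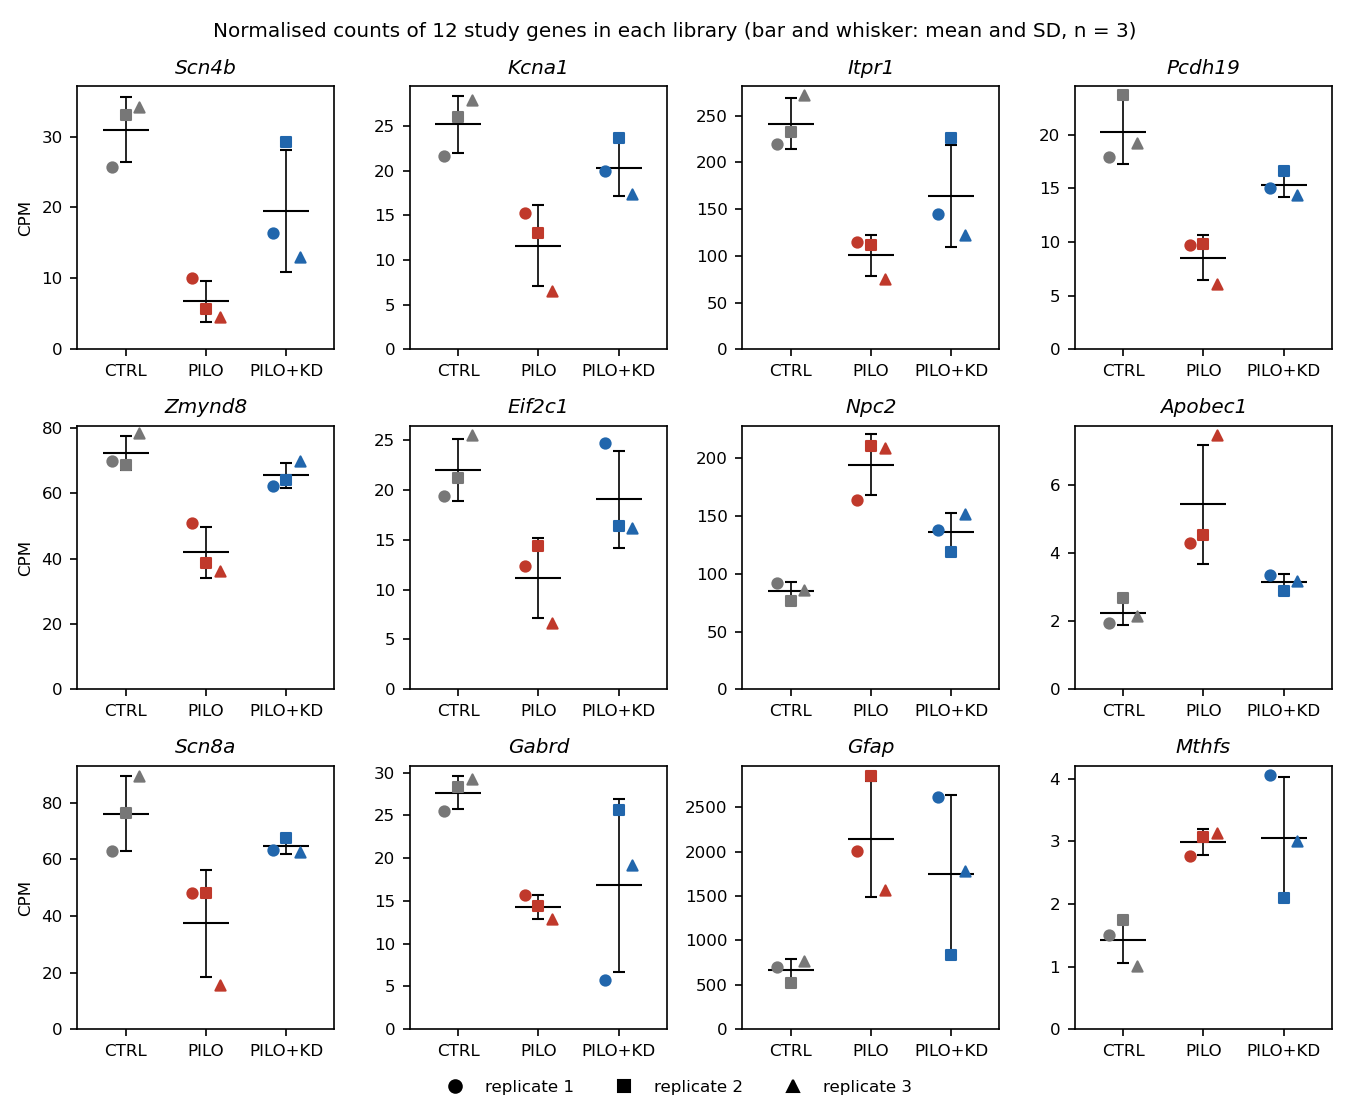
Normalised counts (CPM, vertical axes starting at 0) of 12 study genes in the 3 libraries each of CTRL (grey), PILO (red) and PILO+KD (blue), with the mean and SD as a bar with whiskers and a symbol for each replicate number, which pairs no libraries. Zmynd8 and Pcdh19 show tight PILO+KD libraries above all PILO libraries, whereas the PILO+KD libraries of Gabrd and Gfap are spread over ranges of 4.48-fold and 3.13-fold.

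Among adhesion molecules, Pcdh19 (ENSRNOT00000042335), a protocadherin whose mutation causes an epilepsy of girls and women, had 9.72, 9.78 and 6.10 CPM in PILO and 15.02, 16.6 and 14.4 CPM in PILO+KD. The gap between the groups was wider than the range within either, and the log2 fold change was 0.84 (SE 0.22, 95% interval 0.36 to 1.33, adjusted p 0.613, rank 50 by unadjusted p). It was 0.66 (SE 0.19) without PILO replicate 3 and ran from 0.64 to 0.96 over all alternatives. Levels in CTRL were higher still, at 17.9, 23.7 and 19.3 CPM. Gpr56 (ENSRNOT00000020921), an adhesion G-protein-coupled receptor needed for the layering of the cortex, gave 73.1, 87.0 and 51.4 CPM in PILO and 128, 103 and 79.6 CPM in PILO+KD, with an overlap at PILO+KD replicate 3 (log2 fold change 0.56, SE 0.24). Without PILO replicate 3 the value was 0.38 (SE 0.20), and its unadjusted p in edgeR went from 0.0367 to 0.0803.

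Gfap (ENSRNOT00000034401), the intermediate filament of astrocytes and the usual sign of their reaction to injury, did not separate the diets. It stood at 2005, 2851 and 1563 CPM in PILO and at 2618, 836 and 1783 CPM in PILO+KD, beside 525 to 767 CPM in CTRL. PILO+KD replicates 1 and 3 lay within the PILO range and replicate 2 was close to the CTRL libraries. The estimate on the log2 scale was -0.29 (95% interval -1.07 to 0.48), with -0.71 without PILO+KD replicate 1, 0.041 without PILO+KD replicate 2 and -0.47 without PILO replicate 3. PILO+KD replicate 2 also had the lowest level of the 3 PILO+KD libraries for Npc2, Tgif1, Gadd45a, Apobec1 and Mthfs, and the highest for 10 genes, among them Scn4b, Kcna1, Itpr1 and Gabrd. Leaving this library out took the number of study genes at an unadjusted p under 0.05 from 13 to 5, while the share of all transcripts there was 6.86%, against 7.36% with all libraries. The part of astrocyte content in these differences was not tested.

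Npc2 and Ndufa2 were lower in PILO+KD without overlap. Npc2 (ENSRNOT00000016076), which hands cholesterol on from the lysosome, had 164, 211 and 209 CPM in PILO and 138, 119 and 151.5 CPM in PILO+KD. Its log2 fold change was -0.52 (SE 0.18, 95% interval -0.90 to -0.13), with -0.46 (SE 0.16) without PILO replicate 3 and -0.30 under limma with library quality weights, while CTRL libraries lay at 76.9 to 91.9 CPM. Ndufa2 (ENSRNOT00000023811), a subunit of complex I of the respiratory chain, stood at 93.6, 87.7 and 158 CPM in PILO and at 65.3, 71.8 and 79.6 CPM in PILO+KD. Here PILO replicate 3 was the highest of all 9 libraries, and the log2 fold change of -0.65 (SE 0.26) became -0.33 (SE 0.19) without it. Tgif1 (ENSRNOT00000021534), a homeobox repressor of TGF-beta signalling, rested on 17 to 71 counts a library. Its levels of 1.99, 2.87 and 3.26 CPM in PILO and 1.71, 0.849 and 2.35 CPM in PILO+KD overlapped (log2 fold change -0.76, 95% interval -1.60 to 0.08), and the value was -0.44 without PILO+KD replicate 2.

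The epigenetic list holds genes that write, read or oppose marks on chromatin and DNA, and others such as Mthfs and Eif2c1. Zmynd8 (ENSRNOT00000025932), a reader of acetylated and methylated histones, had 50.8, 38.8 and 36.4 CPM in PILO and 62.4, 64.3 and 69.9 CPM in PILO+KD. The PILO+KD libraries were the tighter group, at 65.5 ± 3.89 CPM against 42.0 ± 7.74 CPM (mean ± SD, n = 3), with replicate 3 inside the CTRL range of 68.8 to 78.5 CPM and the other 2 below it. Its log2 fold change was 0.64 (SE 0.18, 95% interval 0.26 to 1.02, adjusted p 0.613, rank 65 by unadjusted p). Leaving out PILO replicate 3 gave 0.55 (SE 0.16), and the range over all alternatives was 0.47 to 0.81. Cbx5 (ENSRNOT00000055289), a heterochromatin protein that binds methylated histones, was at 32.2, 40.8 and 46.6 CPM in PILO and at 40.2, 31.7 and 28.0 CPM in PILO+KD. These values overlapped (log2 fold change -0.26, 95% interval -0.70 to 0.18), and the estimate was -0.13 without PILO replicate 3 and -0.41 without PILO+KD replicate 1.

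The list also holds enzymes that modify histones. Ncoa1 (ENSRNOT00000005782), a coactivator of nuclear receptors with acetyltransferase activity, stood at 57.7, 60.4 and 26.8 CPM in PILO and at 67.7, 84.3 and 65.7 CPM in PILO+KD, with no overlap. Its log2 fold change of 0.59 (SE 0.26) became 0.30 (SE 0.15) without PILO replicate 3. Ezh1 (ENSRNOT00000027640), a Polycomb methyltransferase, overlapped between diets through PILO+KD replicate 1, at 75.1, 65.6 and 39.3 CPM in PILO and 63.8, 95.9 and 93.1 CPM in PILO+KD (log2 fold change 0.49, 95% interval -0.04 to 1.02, and 0.26 without PILO replicate 3). Mll1 (ENSRNOT00000020573), a methyltransferase of the trithorax group, overlapped as well, with 30.7, 22.8 and 11.6 CPM in PILO and 24.4, 36.6 and 29.3 CPM in PILO+KD. Its log2 fold change was 0.47 (95% interval -0.21 to 1.16), with 0.81 without PILO replicate 1, 0.17 without PILO replicate 3 and 0.016 under limma with library quality weights. Nrip1 (ENSRNOT00000002152), a corepressor of nuclear receptors, ranged from 3.38 to 6.02 CPM in PILO and from 4.69 to 11.9 CPM in PILO+KD (log2 fold change 0.69, 95% interval -0.06 to 1.44, and 0.30 without PILO+KD replicate 2).

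Gadd45a and Apobec1 are linked to removal of DNA methylation. Apobec1 (ENSRNOT00000020735), a cytidine deaminase best known for editing apolipoprotein B mRNA, had 4.31, 4.53 and 7.46 CPM in PILO and 3.37, 2.90 and 3.19 CPM in PILO+KD. It was lower in PILO+KD without overlap on 34 to 126 counts a library, and its log2 fold change of -0.78 (SE 0.28) became -0.49 (SE 0.26) without PILO replicate 3. Gadd45a (ENSRNOT00000007698), a stress-induced gene, stood at 8.89, 11.9 and 10.2 CPM in PILO and at 7.60, 4.45 and 12.2 CPM in PILO+KD. PILO+KD replicate 3 exceeded every PILO library, and the log2 fold change was -0.37 (95% interval -1.08 to 0.34). Without that library, which leaves the FC094 libraries alone, it was -0.77 (SE 0.31), and without PILO+KD replicate 2 it was -0.076.

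Mthfs (ENSRNOT00000039850), an enzyme of the folate cycle that feeds methyl group transfer, had the smallest difference of the 24 genes. It was at 2.76, 3.07 and 3.14 CPM in PILO and at 4.06, 2.10 and 3.003 CPM in PILO+KD, beside 1.02 to 1.74 CPM in CTRL. Its difference between diets was 0.034 on the log2 scale (95% interval -0.64 to 0.70), with 0.070 without PILO replicate 3, and the interval leaves room for a difference either way. Against the CTRL libraries, which both comparisons share, the log2 fold change was 1.09 (SE 0.32) in PILO and 1.12 (SE 0.32) in PILO+KD. Eif2c1 (ENSRNOT00000037728), an Argonaute protein of the microRNA pathway, stood at 12.4, 14.4 and 6.64 CPM in PILO and at 24.7, 16.3 and 16.1 CPM in PILO+KD. It was higher in PILO+KD without overlap (log2 fold change 0.78, SE 0.28), and the difference was 0.52 (SE 0.22) without PILO replicate 3.

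**Figure D4:**
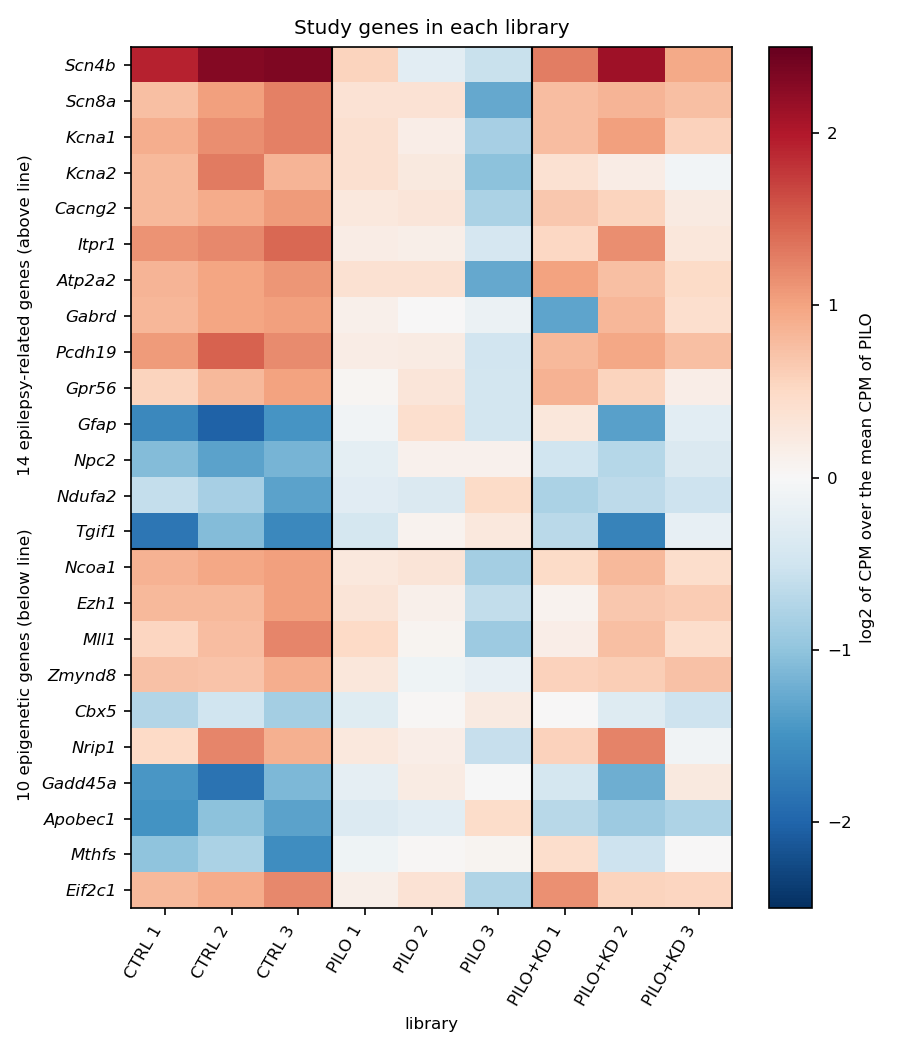
Level of each of the 24 study genes (rows) in each of the 9 libraries (columns), as the log2 of CPM over the mean CPM of PILO, from blue (lower) to red (higher). PILO replicate 3 is the lowest of the 3 PILO libraries for 17 genes, and PILO+KD replicate 1 stands out as the lowest library for Gabrd.

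Single libraries weighed on many of these differences. The study picked the genes on PILO against CTRL, so a PILO library at the extreme of all 9 was partly set by that choice. PILO replicate 3 was the lowest of all 9 libraries for 15 of the 24 genes, among them Scn4b, Scn8a, Kcna1, Kcna2, Cacng2, Itpr1 and Atp2a2. It was the highest of all 9 for Ndufa2, Tgif1, Cbx5 and Apobec1. Without it the absolute log2 fold change between diets was smaller for 21 genes. How often the same held over all transcripts was not counted. In the fit without PILO replicate 3, 9 genes had an unadjusted p under 0.05, all 9 of them among the 13, where 3.59% of all transcripts reached that p. Within the FC094 libraries, which leaves out PILO+KD replicate 3, there were also 13 genes, of which 10 were among the 13, beside 6.15% of all transcripts. With each of the 6 diet libraries left out in turn, 3 genes kept an unadjusted p under 0.05 in edgeR every time: Scn4b, Pcdh19 and Zmynd8. The share of all transcripts that did so was not counted, so the 3 cannot be set against it. The other 10 of the 13 lost that p in at least 1 of these fits. Without PILO+KD replicate 2 these were Scn8a, Kcna1, Itpr1, Atp2a2, Gpr56, Npc2, Ndufa2 and Ncoa1, with log2 fold changes of 0.68 for Kcna1 and -0.43 for Npc2 there. Without PILO+KD replicate 1 they were Scn8a, Atp2a2, Gpr56, Ndufa2, Ncoa1 and Eif2c1, and without PILO replicate 3 Gpr56, Ndufa2, Ncoa1 and Apobec1. Under limma with library quality weights the log2 fold change kept its sign and was over 1.5 times smaller for 16 of the 24 genes, with 0.35 for Itpr1, 0.45 for Scn8a and 0.38 for Atp2a2, and 9 of the 13 had an unadjusted p under 0.05, as did 8.15% of all transcripts.

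Of the transcripts without a symbol here, ENSRNOT00000023330 had the smallest p of all 21242. PILO replicates held 148, 146 and 239 counts of it and PILO+KD replicates 41, 31 and 12, or 8.17, 5.90 and 14.2 CPM against 1.75, 1.55 and 1.13 CPM. PILO+KD was below the lowest PILO library, since transcripts without a symbol were named only where the diets did not overlap. It was near the CTRL level of 1.498 to 2.07 CPM. Between diets the log2 fold change was -2.63 (SE 0.35, adjusted p 0.156). It passed with DESeq2 (9.67e-08), the edgeR exact test (1.97e-07), limma with library quality weights (0.0263) and no low-count filter (0.0329), and without PILO replicate 2 (0.0357) or PILO replicate 3 (0.0476). Over all alternatives the adjusted p went from 9.67e-08 to 0.786. ENSRNOT00000025988 had 2.65, 2.51 and 5.98 CPM in PILO and 0.726, 0.600 and 0.938 CPM in PILO+KD, on 10 to 17 counts a library in the latter (log2 fold change -2.31, SE 0.41, adjusted p 0.534).

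The 2 leading transcripts in the other direction were not significant either. ENSRNOT00000020017 stood at 13.1, 5.01 and 8.47 CPM in PILO and at 31.5, 43.7 and 18.7 CPM in PILO+KD. All PILO+KD libraries lay above PILO and below the CTRL libraries, at 69.0 to 74.4 CPM, and the log2 fold change between diets was 1.83 (SE 0.35, adjusted p 0.534). ENSRNOT00000010247 had 12.1, 5.46 and 8.12 CPM in PILO and 26.1, 53.8 and 17.4 CPM in PILO+KD (log2 fold change 1.93, SE 0.39, adjusted p 0.534). PILO+KD replicate 2 was above, and PILO+KD replicate 3 below, the CTRL range of 23.5 to 29.8 CPM. These last 3 transcripts passed with DESeq2 and the edgeR exact test only.

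**Figure D5:**
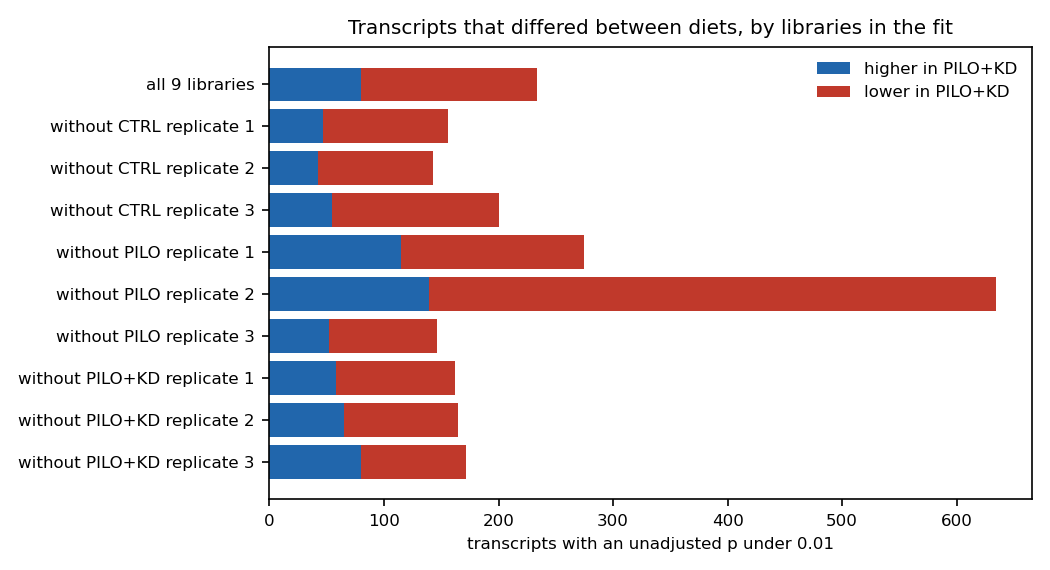
Transcripts that had an unadjusted p under 0.01 between diets (number on the horizontal axis), higher (blue) or lower (red) in PILO+KD, in the fit of all 9 libraries and with each library left out in turn. The number is 234 with all libraries, 634 without PILO replicate 2 and 143 to 275 without any other single library.

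How many transcripts had an unadjusted p under 0.01 depended on which PILO library was in the fit. Without PILO replicate 2 it was 634, 139 higher and 495 lower in PILO+KD, and these held 160 of the 234. Without PILO replicate 3 it was 146, which held 104 of the 234. Leaving out PILO+KD replicate 1, 2 or 3 gave 162, 165 or 172, with 85, 83 or 103 of the 234 among them. The control libraries entered the fit for the spread and the scaling. Their SD of log2 CPM (median over transcripts) was 0.20, against 0.36 in PILO and 0.26 in PILO+KD. Leaving out CTRL replicate 2 gave 143 transcripts, and with only the 6 libraries in the fit the number was 113. In that fit 9 of the 24 study genes had an unadjusted p under 0.05 in edgeR, beside 4.43% of all transcripts. Scn8a, Atp2a2, Gpr56 and Ncoa1 had such a p with all libraries but not there.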

How the data were processed

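Poly-A RNA of the dorsal hippocampus was sequenced as single reads over 36 cycles. Per the study's methods the authors used BWA 0.5.9 and build RN4 for alignment, and a script of their own assigned reads to Ensembl 66 transcripts; the rules for strand and for shared reads are not given in the sources used here. The deposited table holds raw counts with transcript identifiers and no gene symbols, and 0 identifiers matched the rat RefSeq table used here. Symbols of 24 genes named by the study are those of the study (1 other is not reported here), and no coordinates are given. Lists of metabolic, receptor and cell type marker genes could not be matched and gave no result. Of the transcripts tested, 236 shared all their counts with another, none of them named here. No library was a repeat of another of its diet, since the chi-square of each pair was 11.8 to 128 times its degrees of freedom.

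Transcripts with a total of at least 60 over the PILO and PILO+KD libraries were tested in R 4.3.3 with edgeR 4.0.16, by its two-sided quasi-likelihood test (robust, trimmed mean normalization). All 9 libraries entered 1 fit with 3 group means (6 residual degrees of freedom, common biological coefficient of variation 0.239), with Benjamini-Hochberg adjustment over all transcripts tested. The SE is the log2 fold change over the square root of F, and intervals (95%) use the t distribution. Alternatives were DESeq2 1.42.0, the edgeR exact test and limma 3.58.1 with library quality weights. Other scalings and filters, the 6 libraries alone, libraries coded FC094 alone, and each library left out were used as well. The tests were also run on simulated counts that had the same spread in all groups and no outlying library. Such counts cannot show how the tests act with a library like PILO replicate 3. Named were the 24 genes and, in each direction, the 2 other transcripts of smallest p with a mean of at least 20 counts and no overlap. Members, lists and alternatives were chosen with earlier results of these data known, and those on the 24 genes as a group and on 2-fold changes without overlap were added after seeing the data. P-values reflect the spread between animals of 1 library each.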

Additional observations from a re-analysis of the deposited data

How the results depend on the processing

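The number of transcripts with an adjusted p under 0.05 was 0, and it was 22 with DESeq2, 28 with the edgeR exact test, 1 with limma and library quality weights, 1 with no low-count filter and 0 to 1 with 1 library left out. At an unadjusted p under 0.01 there were 234, and 413, 394 and 407 with these 3 tools, 113 with only the 6 libraries and 143 to 634 with 1 library left out. Of the 234, 34.2% were higher in PILO+KD, against 47.0% with scaling by library totals alone, 46.5% of 172 within the FC094 libraries, 23.9% of 113 with only the 6 libraries and 21.9% of 634 without PILO replicate 2. Library totals moved the median log2 fold change over all transcripts from -0.0022 to 0.11. It was 0.0034 with limma, 0.0012 with the 30th centile filter and -0.0059 within the FC094 libraries, and ran from -0.0091 to 0.0221 with 1 library left out. Groups did not overlap at 2547 transcripts, and at 3616 to 6071 with 1 library left out, where fewer samples have to separate. Transcripts that differed at least 2-fold without overlap numbered 246, and 180 to 781 with 1 library left out. Of the 24 study genes 13 had an unadjusted p under 0.05, and 5 to 14 with 1 library left out, where the share of all transcripts ran from 3.59% to 16.2% (7.36% with all libraries). With only the 6 libraries it was 9 genes, beside 4.43% of all transcripts. Of the 24 genes 12 did not overlap, and 12 to 17 with 1 left out. Their median log2 fold change was 0.49, with 0.20 under limma and 0.24 to 0.67 with 1 library left out. Single transcripts changed sign as follows. Under limma Kcna2 was at -0.16 and Gabrd at -0.29. With 1 library left out Kcna2 ran from -0.14 (without PILO replicate 3) to 0.42, Gabrd from -0.23 (without PILO+KD replicate 2) to 0.65, Gfap from -0.71 to 0.041 (without PILO+KD replicate 2) and Mthfs from -0.25 (without PILO+KD replicate 1) to 0.25, and Mthfs was at -0.0078 without PILO replicate 1. Of the other values of single transcripts, 483 kept their direction and their side of the threshold and 14 passed where the reported value had not. The fit within the FC094 libraries is the same as that without PILO+KD replicate 3, and its values were counted under both names. The causes of the shifts between alternatives were not tested. No paired analysis was possible because the labels give no replicate numbers shared between the groups. Low counts limit precision, with as few as 17 counts in a PILO or PILO+KD library for Tgif1 and 32 for Mthfs among the study genes.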
